A study of Mus musculus with 15 samples.

Results

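The 8 genes described here belong to cholesterol synthesis and its control. Hmgcs1, Mvk, Idi1, Fdft1, Sqle, Nsdhl and Sc5d encode enzymes of the pathway, and Insig1 encodes a membrane protein that holds the pathway's transcription factors back. They were chosen by symbol through the platform annotation, and for each the probe set with the highest average over the 15 arrays was taken. All 8 were found among the 18194 genes on the array, and all 8 were among the 15498 genes bright enough to be tested. No gene that takes up cholesterol is among them.

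The study compared T helper cultures activated in different ways, and RNA was taken at day 4. The cells came from 3A9 mice, a strain with a transgenic T cell receptor that recognises hen egg lysozyme (HEL), and CD4+ cells bearing it were sorted with the clonotypic antibody 1G12. In the PBAB groups they were activated by antibodies fixed to the plate, 1 µg/ml against CD3 and 10 µg/ml against CD28. In the HA groups they were activated by HEL protein, presented by splenocytes of syngeneic wild type mice irradiated with 30 Gy, at 2 µg/ml in Th17 and Th1 cultures and 1 µg/ml in Th9 cultures. Th17 cultures received 3 ng/ml of TGF-β, 10 ng/ml of IL-6 and 5 ng/ml of IL-1α, with antibodies to IFN-γ (20 µg/ml), IL-4 (10 µg/ml) and IL-12 (10 µg/ml). Th9 cultures received IL-4 at 10 ng/ml and TGF-β at 1 ng/ml, and Th1 cultures received IL-12 at 10 ng/ml and anti-IL-4 at 10 µg/ml. Each lineage had 2 PBAB arrays, 2 HA arrays and 1 array labelled APC alone. The source label of the APC alone samples names CD4+ T cells, and the labels say no more of what they hold. Th9 and the other HA cultures thus differed in HEL dose as well as in cytokines, and PBAB and HA cultures differed in the presence of splenocytes.

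Cholesterol is made from acetyl-CoA through mevalonate, isoprenoid units, squalene and lanosterol. The genes of the pathway are switched on together by SREBP transcription factors when sterols in the endoplasmic reticulum are low, and INSIG proteins keep these factors in the endoplasmic reticulum when sterols are plentiful. T cells raise the pathway when they are activated, since dividing cells need new membrane.

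SREBP acts at sterol regulatory elements, often beside sites for NF-Y and Sp1. Promoter windows of 300 bases, 250 before the gene start and 50 from it on, were given by RefSeq (GRCm38.p6) for 6 of the 8 genes, namely Hmgcs1, Mvk, Idi1, Nsdhl, Sc5d and Insig1. The letters TCACNCCAC (sterol regulatory element) were found on either strand in 1 of the 6 windows, against 1.242% of 32851 windows of all genes. CCAAT (NF-Y) was found in 6 of 6, against 37.41%, and GGGCGG (Sp1) in 6 of 6, against 35.66%. CACGTG (E box) was found in 2 of 6, Sc5d and Insig1, against 7.15%. None of these matches overlapped another. The windows of Hmgcs1 and Nsdhl are shown because these genes had high correlations with the other members across the arrays, and that of Sc5d because its correlation was the lowest. Capitals mark the sterol regulatory element, TCACCCCAC at position -137 from the Hmgcs1 start, and each CCAAT or its reverse complement ATTGG.
Hmgcs1, chr13:119690101-119690400, plus strand: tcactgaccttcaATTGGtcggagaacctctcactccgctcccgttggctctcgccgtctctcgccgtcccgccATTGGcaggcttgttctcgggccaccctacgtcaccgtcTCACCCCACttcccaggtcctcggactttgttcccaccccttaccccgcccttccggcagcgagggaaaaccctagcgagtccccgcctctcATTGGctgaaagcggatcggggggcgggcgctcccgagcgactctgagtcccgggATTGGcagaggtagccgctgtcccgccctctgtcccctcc
Nsdhl, chrX:72918271-72918570, plus strand: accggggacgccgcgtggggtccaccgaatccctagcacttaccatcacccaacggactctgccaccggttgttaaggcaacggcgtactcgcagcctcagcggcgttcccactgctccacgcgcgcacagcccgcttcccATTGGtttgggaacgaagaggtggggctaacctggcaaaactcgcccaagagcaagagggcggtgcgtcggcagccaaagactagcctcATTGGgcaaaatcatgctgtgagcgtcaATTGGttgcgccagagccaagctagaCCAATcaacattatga
Sc5d, chr9:42264251-42264550, minus strand: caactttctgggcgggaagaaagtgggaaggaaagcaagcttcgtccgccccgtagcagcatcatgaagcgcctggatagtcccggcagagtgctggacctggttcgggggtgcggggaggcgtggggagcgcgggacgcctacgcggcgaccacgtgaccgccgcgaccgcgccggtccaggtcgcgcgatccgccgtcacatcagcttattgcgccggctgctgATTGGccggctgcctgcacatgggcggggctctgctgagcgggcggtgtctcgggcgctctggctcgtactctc
The Hmgcs1 window held the sterol regulatory element. CCAAT matches numbered 4 in Hmgcs1, 5 in Mvk, 2 in Idi1, 4 in Nsdhl, 1 in Sc5d and 1 in Insig1, and no relation between these numbers and the correlations was tested. A match is a run of letters and was not tested for binding.

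The arrays gave log2 expression values after RMA, and the precision of each comparison was limited by their number. Differences were tested with limma on all 15 arrays, and a gene is referred to as called where its Benjamini-Hochberg adjusted p over all tested genes was under 0.05. Marker lists were checked for the cells in the samples. The mean log2 level of 8 T cell markers was 10.84 to 11.14 in PBAB arrays, 10.72 to 11.34 in HA arrays and 6.65 to 7.97 in APC alone arrays. That of 12 macrophage and monocyte markers was 4.93 to 5.40 in PBAB, 4.98 to 6.59 in HA and 9.24 to 9.56 in APC alone arrays. That of 7 B cell markers was 5.17 to 5.43 in PBAB, 4.92 to 5.41 in HA and 6.42 to 6.72 in APC alone arrays. The APC alone arrays therefore carried low T cell marker levels, although their source label names T cells. The actin 3' minus 5' difference, a sign of RNA or cDNA length, was 0.12 to 0.28 in PBAB, 0.05 to 0.11 in HA and 0.74 to 0.99 in APC alone arrays.

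**Figure D1:**
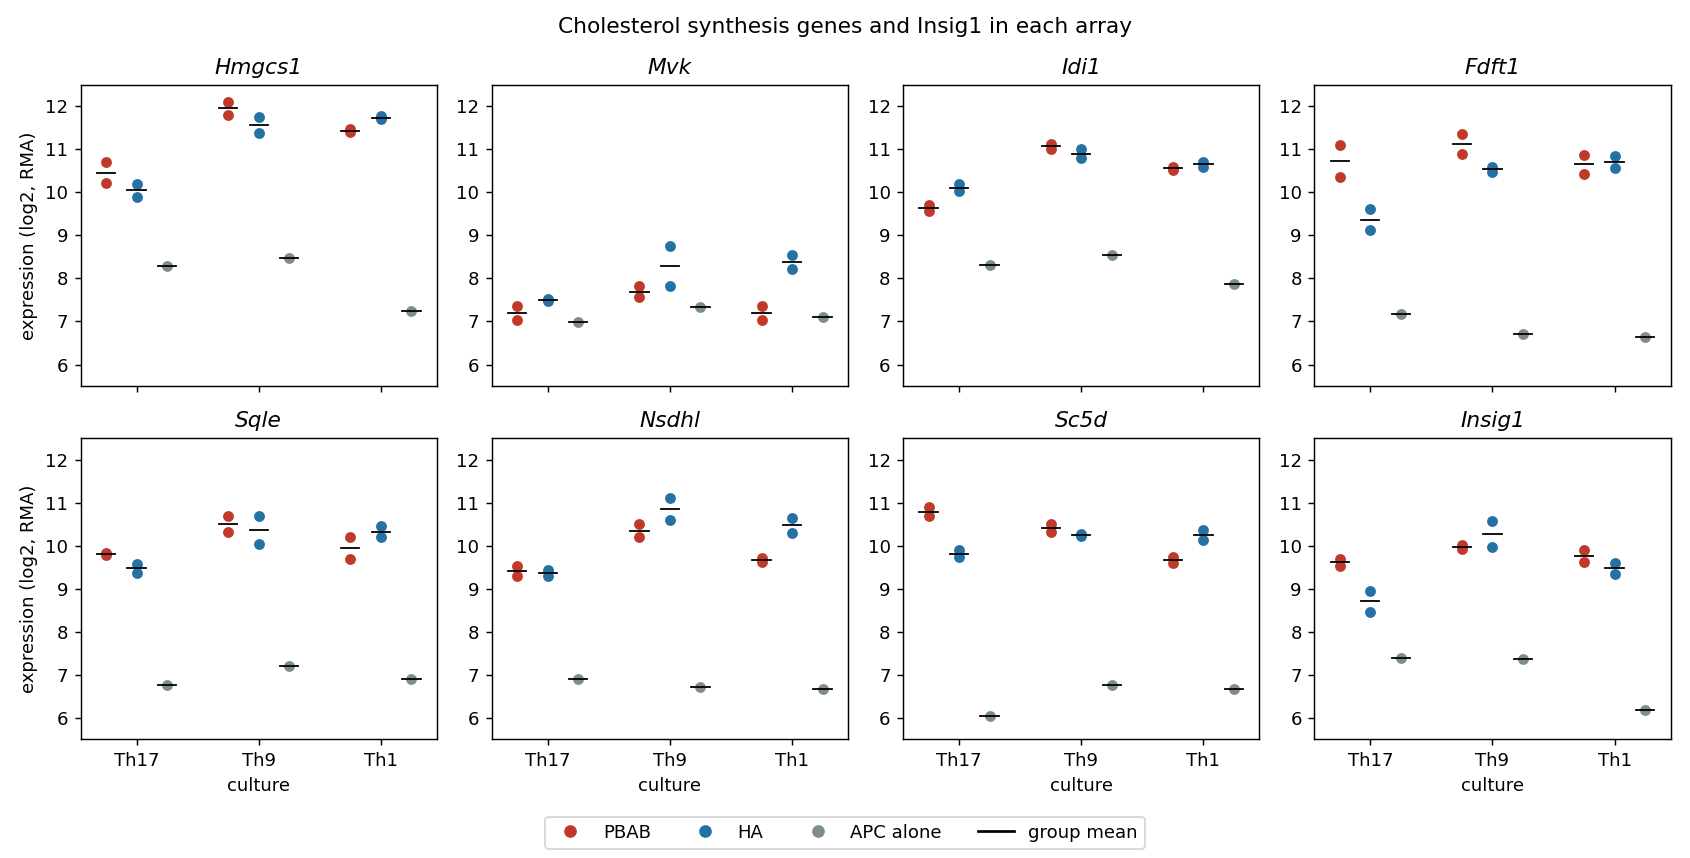
Log2 expression (RMA) of each gene in each of the 15 arrays, by culture on the horizontal axis and by activation in colour, where points are arrays and bars group means. The APC alone arrays lay lowest for every gene except Mvk, and Th17 arrays lay below Th9 and Th1 arrays under HA.

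Activated T cell arrays carried far more of this pathway's RNA than APC alone arrays. Under PBAB, 7 of 8 genes were called higher than in APC alone, where 48.7% of all tested genes were, and Mvk was not called. Under HA 8 of 8 were called higher, where 49.5% of all tested genes were. The median difference of the 8 genes was 3.09 on the log2 scale for PBAB minus APC alone and 3.11 for HA minus APC alone, beside medians over all genes of 0.31 and 0.36. Both comparisons use the same 3 APC alone arrays. Since T cell markers were low in these arrays, a difference in the cells present enters this comparison, and fewer cells of a type cannot be told apart from less RNA per cell. Another scaling moved the median of all genes: with quantile normalization repeated it was 0.08 in both comparisons, and with arrays centred on their medians 0.73 under PBAB and 0.80 under HA. The actin 3' minus 5' difference was also higher in APC alone than in activated arrays, and its part in these comparisons was not tested.

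Among the lineages, Th17 cultures had the lowest levels of these genes under HA. There, 5 of 8 genes were called lower in Th17 than in Th9 cultures, where 2.16% of all tested genes were, and 3 of 8 were called lower in Th17 than in Th1 cultures, where 3.87% were. All 8 differences were negative in both comparisons, which share the Th17 HA arrays, with medians of -1.03 against Th9 and -0.87 against Th1. Under PBAB, 3 of 8 were lower in Th17 than in Th9 cultures, where 3.74% of all tested genes were. Against Th1 under PBAB, 2 of 8 were lower and 1, Sc5d, was higher, where 3.13% and 3.86% of all tested genes were. Between Th9 and Th1, 0 of 8 genes were called under HA, where 5.34% were called in either direction. In limma 1 of the 8 had an unadjusted p under 0.05 there, where 15.2% of all tested genes did. Under PBAB 1 of 8, again Sc5d, was higher in Th9, where 1.25% were. With the replicate number as a block (the paired fit), more of all tested genes were called too. No call of the 8 genes between activated groups was lost in that fit, and the fits that left out an array had no block. In the blocked fit all 8 genes were lower in Th17 than in Th9 cultures under HA, where 4.77% of all tested genes were, and all 8 lower than in Th1 cultures, where 7.78% were. Insig1 was higher in Th9 than in Th1 cultures under HA in that fit (0.79, adjusted p = 0.0133), where 4.72% were. Under PBAB 4 of 8 were lower in Th17 than in Th9 cultures with the block, Sqle being the addition, where 9.08% were.

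The 2 ways of activation gave no shared direction over the 8 genes. In Th17 cultures 3 of 8 genes, Fdft1, Sc5d and Insig1, were called higher under PBAB than under HA, where 6.66% of all tested genes were. In Th1 cultures 3 of 8, Mvk, Nsdhl and Sc5d, were called lower under PBAB, where 9.4% were. In Th9 cultures 0 of 8 were called, where 13.7% were called in either direction. There 1 of the 8 had an unadjusted p under 0.05 in limma, where 25.6% of all tested genes did. The median PBAB minus HA difference of the 8 genes was 0.38 in Th17, 0.16 in Th9 and -0.35 in Th1 cultures, against 0.00, 0.01 and 0.03 over all tested genes. Averaged over the lineages, 1 of 8 (Fdft1) was higher under PBAB and 2 of 8 (Mvk and Nsdhl) were lower, where 13.2% and 17.3% of all tested genes were. With the replicate block, 1 of 8 (Idi1) was called lower under PBAB in Th17 cultures, where 17.9% of all tested genes were. In Th9 cultures that fit called 1 of 8 higher (Fdft1) and 1 of 8 lower (Mvk), where 13.8% and 12.4% were, and in the average it called 3 of 8 higher (Fdft1, Sc5d and Insig1), where 18.9% were. These blocked counts were below or near the shares over all genes, except that of the average.

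Whether the activation difference itself differed between lineages was tested by interaction. Sc5d was the 1 gene of 8 called in the F test over the 3 lineages (adjusted p = 0.0118), where 4.19% of all tested genes were. In Th17 minus Th1, 1 of 8 was called higher, where 2.15% were. In Th17 minus Th9, 0 of 8 were called, where 1.71% were in either direction, and in Th9 minus Th1, 0 of 8, where 1.37% were. In limma, 3 of the 8 in Th17 minus Th9 and 2 of the 8 in Th9 minus Th1 had an unadjusted p under 0.05. Of all tested genes, 14.1% and 11.1% did. With the replicate block 3 were called higher in Th17 minus Th9 (Fdft1, Sc5d and Insig1), where 3.05% of all tested genes were. That fit called 2 higher in Th17 minus Th1 (Fdft1 and Sc5d), where 6.61% were, and 1 in Th9 minus Th1 (Sc5d), where 3.41% were. The other Sc5d probe sets gave PBAB minus HA differences of -0.17 and 0.05 in Th9 cultures and 0.17 and 0.16 in Th1 cultures. The higher difference in Th9 than in Th1 cultures was thus not seen with them.

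**Figure D2:**
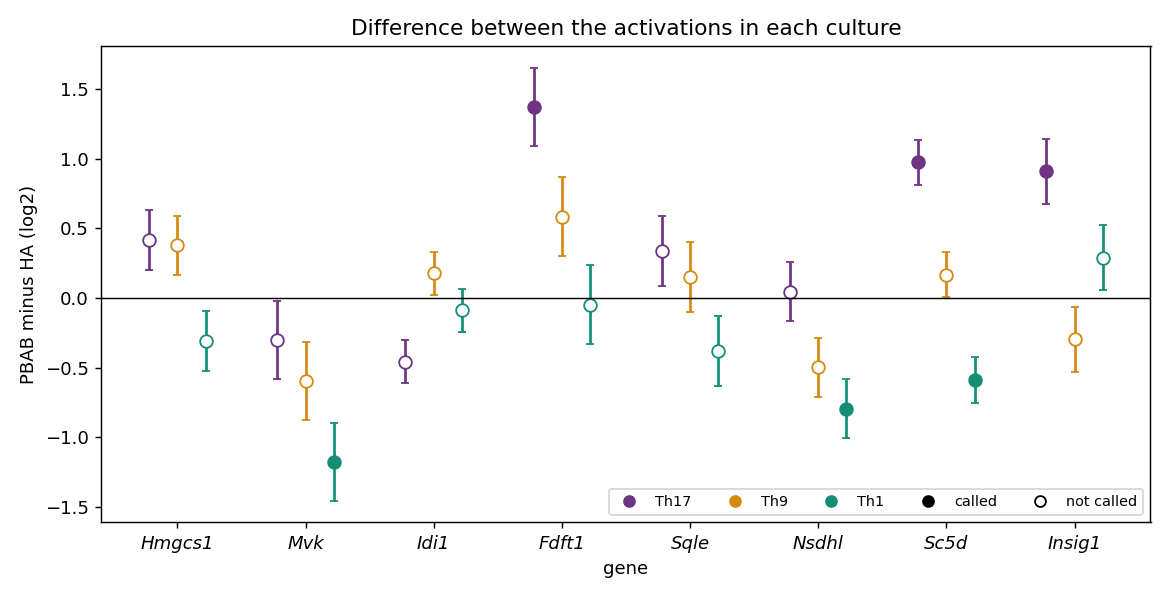
PBAB minus HA difference of each gene (log2, vertical axis) in Th17, Th9 and Th1 cultures, where points are limma estimates, bars standard errors and filled points called differences. Fdft1, Sc5d and Insig1 were called above 0 in Th17 cultures, and Mvk, Nsdhl and Sc5d below 0 in Th1 cultures.

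Hmgcs1 encodes cytosolic HMG-CoA synthase, which makes the precursor of mevalonate (GRCm38.p6, chr13:119690351-119708260). Its log2 level in Th17 cultures was 10.22 and 10.71 under PBAB, 9.90 and 10.19 under HA and 8.28 in APC alone. In Th9 cultures it was 11.81 and 12.10 under PBAB, 11.77 and 11.39 under HA and 8.48 in APC alone. In Th1 cultures it was 11.46 and 11.40 under PBAB, 11.78 and 11.70 under HA and 7.24 in APC alone. Every Th17 array lay below every Th9 and Th1 array of either activation, and the APC alone arrays lay below all 12 activated arrays. Under HA, Hmgcs1 was 2.89-fold lower in Th17 than in Th9 cultures (log2 difference -1.53 ± 0.21, SE, adjusted p = 0.0027) and 3.24-fold lower than in Th1 cultures (-1.70 ± 0.21, adjusted p = 0.00072). The gap between the lineages was far wider than that between replicates, and these differences were called in each fit that left out an array. Under PBAB the Th17 minus Th9 difference was -1.49 ± 0.21 (adjusted p = 0.00233) and the Th17 minus Th1 difference -0.97 ± 0.21 (adjusted p = 0.0218). The call against Th1 under PBAB was lost without Th17 PBAB replicate 1 (adjusted p = 0.155), Th1 PBAB replicate 1 (0.116) or Th1 PBAB replicate 2 (0.0989). PBAB and HA arrays of the same lineage did not overlap, higher under PBAB in Th17 and Th9 and lower in Th1, but none of the 3 differences was called (0.42, 0.38 and -0.31 on the log2 scale, each ± 0.21).

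Mvk encodes mevalonate kinase, which phosphorylates mevalonate (chr5:114444264-114460591). Th17 cultures had log2 levels of 7.35 and 7.04 under PBAB, 7.48 and 7.53 under HA and 6.99 in APC alone. Th9 cultures had log2 levels of 7.82 and 7.57 under PBAB, 8.76 and 7.82 under HA and 7.33 in APC alone. Th1 cultures had log2 levels of 7.37 and 7.04 under PBAB, 8.55 and 8.21 under HA and 7.10 in APC alone. Mvk was the member whose PBAB arrays overlapped the APC alone arrays, and its HA arrays lay above them. Mvk was 1.89-fold higher under HA than in APC alone (log2 difference 0.92 ± 0.20, adjusted p = 0.00106), while the difference of 0.23 ± 0.20 under PBAB was not called (adjusted p = 0.294). Both results depend on how the arrays were scaled. With quantile normalization repeated, the HA difference was 0.06 and not called (adjusted p = 0.719), and the PBAB difference was -0.52 and called lower (adjusted p = 0.00618). With arrays centred on their medians the PBAB difference was 0.65 and called higher (adjusted p = 0.0143). Between the activations, Mvk was lower under PBAB in all 3 lineages, with arrays that touched in Th9 cultures. In Th1 cultures Mvk was 2.26-fold lower under PBAB than under HA (-1.18 ± 0.28, adjusted p = 0.0187). That call was lost without Th1 HA replicate 1 (adjusted p = 0.107) or Th1 PBAB replicate 2 (0.128). The average over lineages was -0.69 ± 0.16 (adjusted p = 0.00774), and Mvk was lower under PBAB in 6 of 6 pairs of arrays with the same lineage and replicate number. In Th9 cultures the difference of -0.59 was called only with the replicate block (adjusted p = 0.0433) or without Th9 HA replicate 2 (-1.06, adjusted p = 0.0311), among the alternatives run.

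Idi1 encodes isopentenyl-diphosphate isomerase, which interconverts the isoprenoid building blocks (chr13:8885606-8892396). Its log2 level in Th17 cultures was 9.58 and 9.72 under PBAB, 10.03 and 10.19 under HA and 8.30 in APC alone. In Th9 cultures it was 11.02 and 11.13 under PBAB, 11.00 and 10.80 under HA and 8.55 in APC alone. In Th1 cultures it was 10.60 and 10.52 under PBAB, 10.72 and 10.58 under HA and 7.88 in APC alone. The order Th9, Th1, Th17 held without overlap under PBAB and under HA. Under PBAB, Idi1 was 2.69-fold lower in Th17 than in Th9 cultures (-1.43 ± 0.15, adjusted p = 0.000453) and 1.88-fold lower than in Th1 cultures (-0.91 ± 0.15, adjusted p = 0.0055), the second of which was lost without Th1 PBAB replicate 1 (adjusted p = 0.053). Under HA the Th17 minus Th9 difference was -0.79 ± 0.15 (adjusted p = 0.0169), lost without Th9 HA replicate 1 (0.108), Th17 HA replicate 1 (0.109) or Th17 HA replicate 2 (0.0544). In Th17 cultures the PBAB arrays lay below the HA arrays (-0.46 ± 0.15), a difference that only the fit with the replicate block called (adjusted p = 0.0266, and 0.0691 without it).

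Fdft1 encodes squalene synthase, the enzyme that commits the pathway to sterols (chr14:63145150-63181687). Th17 cultures had log2 levels of 10.36 and 11.11 under PBAB, 9.12 and 9.61 under HA and 7.18 in APC alone. Th9 cultures had log2 levels of 10.88 and 11.37 under PBAB, 10.48 and 10.60 under HA and 6.71 in APC alone. Th1 cultures had log2 levels of 10.44 and 10.87 under PBAB, 10.56 and 10.84 under HA and 6.64 in APC alone. The Th17 HA arrays lay apart below the other 10 activated arrays. Fdft1 was 2.59-fold higher under PBAB than under HA in Th17 cultures (1.37 ± 0.28, adjusted p = 0.00812), but the call was lost without Th17 HA replicate 1 (adjusted p = 0.0575) or Th17 PBAB replicate 2 (0.0735). In Th9 cultures the difference of 0.58 ± 0.28 was called only with the replicate block (adjusted p = 0.0164) among the alternatives run, and in Th1 cultures it was -0.05 ± 0.28 (adjusted p = 0.94). The average over lineages was 0.64 ± 0.16 (adjusted p = 0.0129). The PBAB arrays lay above the HA arrays in Th17 and Th9 cultures and overlapped them in Th1 cultures. Under HA, Fdft1 was lower in Th17 than in Th9 cultures (-1.18 ± 0.28, adjusted p = 0.0425) and than in Th1 cultures (-1.34 ± 0.28, adjusted p = 0.0171). The call against Th9 was lost in 8 of the 12 fits that left out an array (adjusted p of 0.0512 to 0.243 in these) and with array weights (0.0734), and the call against Th1 without Th17 HA replicate 1 (0.118) or Th1 HA replicate 2 (0.11). Under PBAB the lineages overlapped for Th17, and neither difference was called (-0.39 against Th9 and 0.08 against Th1). The activation difference in Th17 minus that in Th1 was 1.42 ± 0.40, not called here (adjusted p = 0.0916) but called in the fit with the replicate block (0.00266).

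Sqle encodes squalene epoxidase, which oxidises squalene on the way to lanosterol (chr15:59315092-59331193). Its log2 level in Th17 cultures was 9.84 and 9.79 under PBAB, 9.58 and 9.38 under HA and 6.76 in APC alone. In Th9 cultures it was 10.70 and 10.33 under PBAB, 10.69 and 10.03 under HA and 7.20 in APC alone. In Th1 cultures it was 10.20 and 9.69 under PBAB, 10.45 and 10.21 under HA and 6.89 in APC alone. The Th17 HA arrays were the lowest activated arrays and the APC alone arrays the lowest of all. None of the comparisons among activated groups was called for Sqle. The Th17 minus Th9 difference was -0.89 ± 0.25 under HA (adjusted p = 0.082) and -0.70 ± 0.25 under PBAB (0.151), and the replicate block gave adjusted p = 0.00417 and 0.0118 for these. The Th17 minus Th1 difference under HA was -0.86 ± 0.25 (adjusted p = 0.074, and 0.00392 with the replicate block).

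Nsdhl encodes a sterol dehydrogenase that acts in removing methyl groups after lanosterol (chrX:72918521-72958528). Th17 cultures had log2 levels of 9.29 and 9.53 under PBAB, 9.44 and 9.29 under HA and 6.90 in APC alone. Th9 cultures had log2 levels of 10.21 and 10.50 under PBAB, 11.11 and 10.59 under HA and 6.71 in APC alone. Th1 cultures had log2 levels of 9.63 and 9.72 under PBAB, 10.64 and 10.31 under HA and 6.68 in APC alone. Th17 arrays overlapped between the activations, while in Th9 and Th1 cultures the PBAB arrays lay below the HA arrays. Under HA, Nsdhl was 2.80-fold lower in Th17 than in Th9 cultures (-1.49 ± 0.21, adjusted p = 0.00303) and 2.16-fold lower than in Th1 cultures (-1.11 ± 0.21, adjusted p = 0.00966). The second was lost without Th17 HA replicate 2 (adjusted p = 0.0782) or Th1 HA replicate 1 (0.0803). The Th17 arrays lay below those of the other lineages under either activation. Under PBAB the Th17 minus Th9 difference was -0.94 ± 0.21 (adjusted p = 0.0256), lost when any of the 4 arrays compared was left out (0.0621 to 0.164). In Th1 cultures Nsdhl was 1.74-fold lower under PBAB than under HA (-0.80 ± 0.21, adjusted p = 0.0298), a call lost when any of the 4 Th1 arrays was left out (0.0553 to 0.179). The average over lineages, -0.42 ± 0.12 (adjusted p = 0.0246), was lost without replicate 1 of any of the 6 activated groups (0.0584 to 0.0686).

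Sc5d encodes lathosterol oxidase, which places a double bond in the sterol ring late in the pathway (chr9:42251592-42264300). Its log2 level in Th17 cultures was 10.68 and 10.90 under PBAB, 9.74 and 9.90 under HA and 6.04 in APC alone. In Th9 cultures it was 10.32 and 10.51 under PBAB, 10.22 and 10.27 under HA and 6.75 in APC alone. In Th1 cultures it was 9.61 and 9.73 under PBAB, 10.15 and 10.38 under HA and 6.66 in APC alone. Under PBAB the order was Th17, Th9, Th1 without overlap, and under HA the Th17 arrays were the lowest. Sc5d was 1.97-fold higher under PBAB than under HA in Th17 cultures (0.98 ± 0.16, adjusted p = 0.00282), called in each fit that left out an array. In Th1 cultures its PBAB minus HA difference was called lower (-0.59 ± 0.16, adjusted p = 0.0354). That call was lost when any of the 4 Th1 arrays was left out (0.0575 to 0.219), with quantile normalization repeated (-0.43, adjusted p = 0.113) and with the mean of all its probe sets (-0.09, adjusted p = 0.698). Sc5d therefore went opposite ways in Th17 and Th1 cultures with this probe set. The activation difference in Th17 minus that in Th1 was 1.56 ± 0.23 (adjusted p = 0.00604). Under PBAB, Sc5d was 2.18-fold higher in Th17 than in Th1 cultures (1.12 ± 0.16, adjusted p = 0.00229), and 1.67-fold higher in Th9 than in Th1 cultures (0.74 ± 0.16, adjusted p = 0.0464). The call of Th9 over Th1 was lost in each of the 12 fits that left out an activated array (0.0594 to 0.295). It was also lost with quantile normalization repeated (0.61, adjusted p = 0.114) and with the mean of all probe sets (0.45, adjusted p = 0.119). The Th17 minus Th9 difference under PBAB was 0.38, not called (adjusted p = 0.248), but was called with the mean of all probe sets (0.79, adjusted p = 0.00403).

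Insig1 encodes the sterol-dependent brake on SREBP (chr5:28071412-28078662). Th17 cultures had log2 levels of 9.53 and 9.70 under PBAB, 8.95 and 8.47 under HA and 7.40 in APC alone. Th9 cultures had log2 levels of 10.02 and 9.92 under PBAB, 10.57 and 9.97 under HA and 7.37 in APC alone. Th1 cultures had log2 levels of 9.90 and 9.63 under PBAB, 9.60 and 9.35 under HA and 6.18 in APC alone. As for Fdft1, the Th17 HA arrays lay apart below the other activated arrays, while the 6 PBAB arrays of the 3 lineages spanned only 9.53 to 10.02. Insig1 was 1.88-fold higher under PBAB than under HA in Th17 cultures (0.91 ± 0.23, adjusted p = 0.0231). The call was lost without Th17 PBAB replicate 1 (adjusted p = 0.0709), Th17 PBAB replicate 2 (0.131) or Th17 HA replicate 2 (0.184). No pair of lineages was called for Insig1 under PBAB. Under HA, Insig1 was 2.95-fold lower in Th17 than in Th9 cultures (-1.56 ± 0.23, adjusted p = 0.00406), and the Th17 minus Th1 difference of -0.77 ± 0.23 was not called (0.0855, and 0.0131 with the replicate block). The average PBAB minus HA difference of 0.30 ± 0.14 was not called (adjusted p = 0.128), but was in the fit with the replicate block (0.0327).

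**Figure D3:**
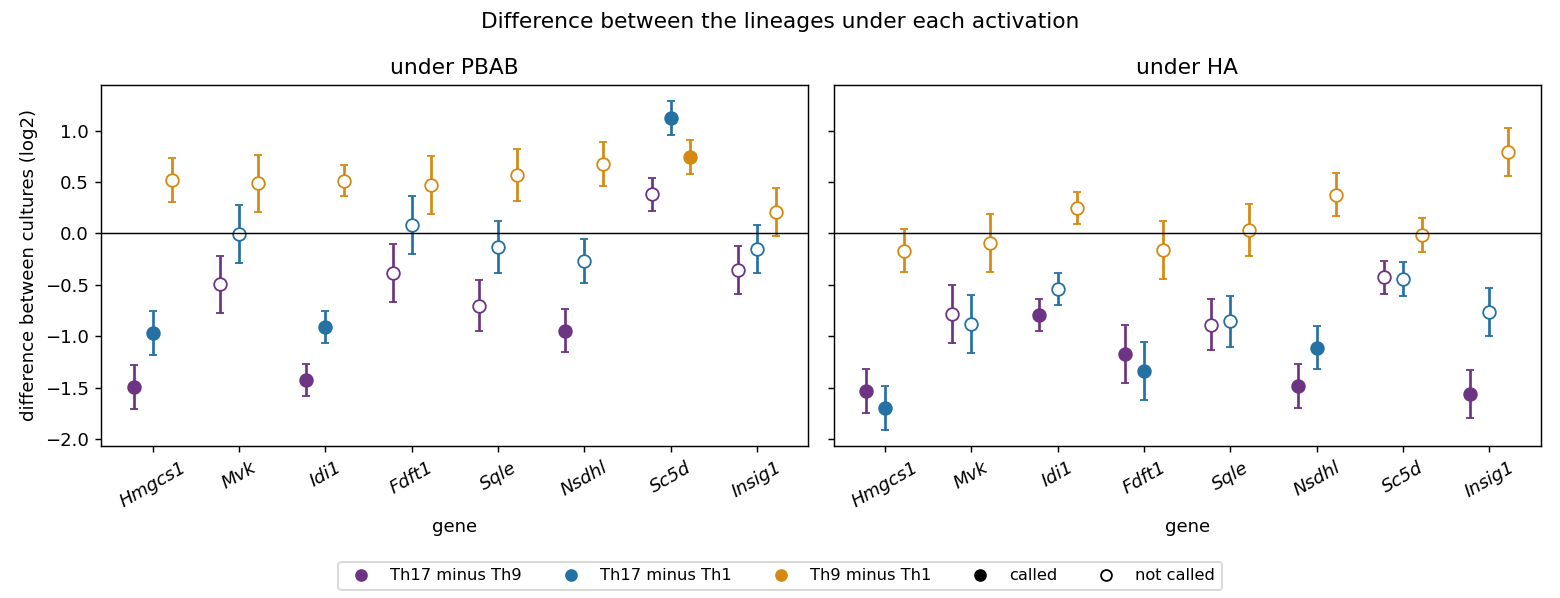
Difference between lineages for each gene (log2, vertical axis) under PBAB on the left and HA on the right, where points are limma estimates, bars standard errors and filled points called differences. Under HA all 16 Th17 differences lay below 0, and under PBAB Sc5d alone was called higher in Th17 cultures.

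Other measures moved with these comparisons. The mean log2 level of the 12 macrophage and monocyte markers under HA was 6.36 and 6.59 in Th17, 6.0 and 5.68 in Th9 and 5.10 and 4.98 in Th1 cultures. Under PBAB it was 4.93 and 5.10 in Th17, 4.95 and 5.30 in Th9 and 5.07 and 5.40 in Th1 cultures. Of the 12 markers 6 were called higher in Th17 than in Th1 cultures under HA, where 3.03% of all tested genes were, and 3 higher in Th17 than in Th9 cultures, where 2.61% were. In Th17 cultures 6 were lower under PBAB than under HA, where 10.4% were. The Th17 HA arrays thus had both the lowest mean level of the 8 genes and the highest macrophage marker levels of the activated arrays, and the part of these cells in the results was not tested. In PBAB arrays 5 of the 12 markers stayed below the filter threshold of 5.07 in all arrays, and in HA arrays 1 of 12. Under PBAB the macrophage marker levels of the lineages overlapped, and Hmgcs1, Idi1 and Nsdhl were called lower in Th17 than in Th9 cultures there, the Nsdhl call being lost when any of the 4 arrays was left out. B cell markers overlapped between PBAB and HA arrays, and 1 of the 7 stayed below the threshold in all PBAB arrays and 2 of 7 in all HA arrays.

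Cell division genes also differed between the activations. Their mean log2 level over 11 genes was 8.81 to 10.69 in PBAB arrays and 11.02 to 11.56 in HA arrays, without overlap, and 11 of 11 were called lower under PBAB in the average over lineages (median -1.26), where 17.3% of all tested genes were. In Th17 cultures 9 of 11 were lower under PBAB (median -1.96), beside 10.4% of all tested genes, while 3 of the 8 cholesterol genes were higher. Under HA, limma called 0 of 11 division genes between Th17 and Th9 or Th1 cultures. In both comparisons 0 had an unadjusted p under 0.05, where 15.4% and 17.7% of all tested genes did. Under PBAB 6 of 11 were lower in Th17 than in Th9 cultures (median -1.21), where 3.74% of all tested genes were. The actin 3' minus 5' differences of PBAB and HA arrays did not overlap either, and their part in the results was not tested.

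Probe sets not used above gave a check. The 8 genes had 19 probe sets, 11 beside those used, and Sqle, Nsdhl and Insig1 had no other. Differences in this paragraph are PBAB minus HA on the log2 scale, adjusted over all 34958 probe sets with 1 symbol. Of the 3 other bright Hmgcs1 probe sets, with Th17 differences of 0.69, 0.63 and 0.61, those of 0.69 and 0.63 were called (adjusted p = 0.031 and 0.035), and a dim probe set gave 0.75, not called. In Th1 cultures the bright ones gave 0.10, 0.01 and -0.34 and the dim one 0.28, none called, beside -0.31 for the probe set used. The direction of Hmgcs1 in Th1 cultures thus differed between probe sets. The other Mvk probe set was also called lower in Th1 cultures (-1.03). The other Idi1 probe set was not called in Th17 cultures (-0.25). For Fdft1, another bright probe set gave 1.27 in Th17 cultures and was called, while a dim pair gave 0.17 and 0.02. For Sc5d, the other probe sets were called higher in Th17 cultures too (1.08 and 1.89), but gave 0.17 and 0.16 in Th1 cultures, opposite in sign to the -0.59 of the probe set used. The higher Sc5d level under PBAB in Th17 cultures was thus seen with 3 of 3 probe sets, and the lower level in Th1 cultures with 1 of 3.

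Across the 12 activated arrays, the 8 genes varied together to differing degrees, Sc5d the least. The correlation of each gene with the mean standardised level of the other 7 was 0.89 for Sqle, 0.88 for Hmgcs1, 0.87 for Nsdhl, 0.76 for Insig1, 0.70 for Idi1, 0.61 for Fdft1, 0.54 for Mvk and 0.19 for Sc5d. Between pairs, Pearson's r was highest for Hmgcs1 and Idi1 (0.87) and lowest for Idi1 and Sc5d (-0.21). It was 0.01 for Mvk and Fdft1 and 0.34 for Mvk and Insig1, while Sc5d had 0.55 with Fdft1. These values describe 12 arrays that every gene shares and that fall into 6 groups. The mean standardised level of the 8 genes was -0.59 and -0.25 in Th17 PBAB, -1.23 and -1.18 in Th17 HA, 0.67 and 0.78 in Th9 PBAB, 1.07 and 0.35 in Th9 HA, -0.19 and -0.36 in Th1 PBAB and 0.56 and 0.37 in Th1 HA. Th17 arrays were thus lowest under either activation, except that Th1 PBAB replicate 2 lay between the Th17 PBAB arrays.

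**Figure D4:**
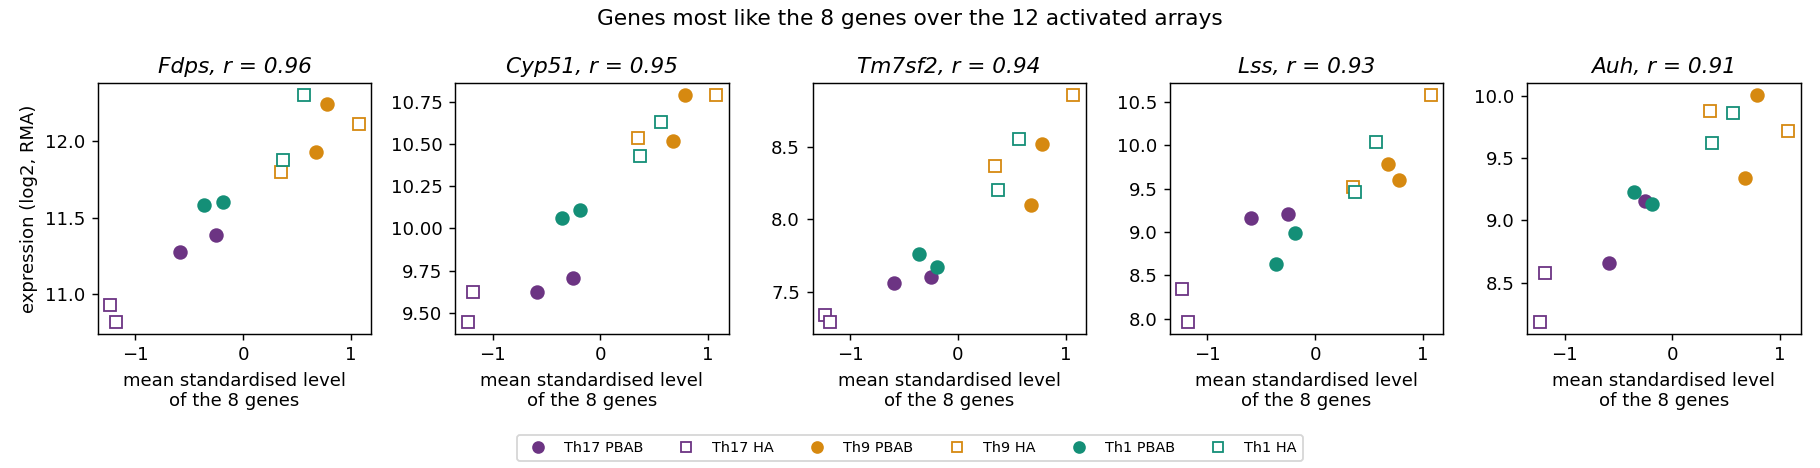
Log2 expression (vertical axes) of the 5 genes with the highest Pearson r to the mean standardised level of the 8 genes (horizontal axes) over the 12 activated arrays, where points are arrays, filled under PBAB and open under HA. Th17 HA arrays lay lowest on the horizontal axis, and on the vertical axis too except for Cyp51, where Th17 HA replicate 2 (9.63) lay level with Th17 PBAB replicate 1 (9.62). The value of r is from 0.91 to 0.96.

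Of the 15490 other tested genes, those with the highest r to the mean standardised level of the 8 genes were Fdps (0.96), Cyp51 (0.95), Tm7sf2 (0.94), Lss (0.93) and Auh (0.91). Fdps encodes farnesyl diphosphate synthase, Lss lanosterol synthase, Cyp51 the lanosterol demethylase and Tm7sf2 a sterol reductase, which all act in cholesterol synthesis, and Auh encodes a mitochondrial enzyme of leucine breakdown. Fdps, as an example, had log2 levels of 11.28 and 11.39 in Th17 PBAB, 10.93 and 10.82 in Th17 HA, 11.93 and 12.24 in Th9 PBAB, 12.11 and 11.80 in Th9 HA, 11.61 and 11.58 in Th1 PBAB and 12.30 and 11.87 in Th1 HA arrays. The Th17 arrays were the lowest under each activation. These 5 genes were picked on the same 12 arrays, in which the mean level of the 8 was lowest in Th17 HA, so a lower level there was fixed by the choice and is given as a description. Their differences under HA were -1.08 to -1.90 for Th17 minus Th9 and -0.99 to -1.61 for Th17 minus Th1. None of the 5 was called between PBAB and HA in any lineage without the replicate block. With it, Lss was called higher under PBAB in Th17 cultures (1.04, adjusted p = 0.00389, and 0.0502 without it) and lower in Th1 cultures (-0.94, adjusted p = 0.00758), and Tm7sf2 lower in Th1 cultures (-0.67, adjusted p = 0.0271).

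The remaining enzymes of the pathway were listed in full, and 10 of 13 were tested. Under HA, 8 of 10 were called lower in Th17 than in Th9 cultures (median -1.22), where 2.16% of all tested genes were, and 6 of 10 lower than in Th1 cultures (median -1.03), where 3.87% were, with none higher. Under PBAB, 5 of 10 were lower in Th17 than in Th9 cultures (median -0.85), where 3.74% were. In limma 0 of 10 were called against Th1 under PBAB, and 3 had an unadjusted p under 0.05, where 19.4% of all tested genes did. Against APC alone, 10 of 10 were higher under PBAB and 10 of 10 under HA, where 48.7% and 49.5% of all tested genes were. Msmo1, a sterol methyl oxidase that works beside Nsdhl, rose under PBAB in Th17 cultures (1.36 ± 0.20, adjusted p = 0.00155) and Th9 cultures (0.79 ± 0.20, adjusted p = 0.0266), and its difference in Th1 cultures was 0.21 ± 0.20. Ebp, a sterol isomerase of the step before Sc5d, fell in Th1 cultures (-0.90 ± 0.19, adjusted p = 0.0102) and Th9 cultures (-0.65 ± 0.19, adjusted p = 0.0471). Hsd17b7, a sterol ketone reductase, was lower in Th17 than in Th9 cultures under HA (-1.67 ± 0.36, adjusted p = 0.0248) and was not called between activations.

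Sterol sensing and uptake genes, 11 of 12 tested, had no common direction. Averaged over lineages, 1 of 11 rose under PBAB and 3 of 11 fell (median 0.23, beside 0.02 over all tested genes), where 13.2% and 17.3% of all tested genes did. Insig2, the partner of Insig1, rose (0.83 ± 0.12, adjusted p = 0.000445). Scap, which escorts SREBP to the Golgi, fell (-0.61 ± 0.18, adjusted p = 0.0286), and so did Mylip (-0.96 ± 0.12, adjusted p = 0.000141), a ubiquitin ligase that degrades lipoprotein receptors. Under HA, limma called 0 of 11 between Th17 and Th9 cultures, and 2 had an unadjusted p under 0.05, where 15.4% of all tested genes did. Also under HA, 1 of 11, Mylip, was lower in Th17 than in Th1 cultures, where 3.87% of all tested genes were.

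Some efflux and storage genes ran the other way in the comparisons where Th17 HA arrays stood apart. Of 6 tested, 3 were called higher in Th17 than in Th9 cultures under HA (median 0.52), where 2.61% of all tested genes were, and 3 were not called. Against Th1 cultures 2 were called higher (median 0.19), where 3.03% were, and 4 were not called. None was called lower in either comparison. In the average over lineages 4 of 6 fell under PBAB (median -0.48), where 17.3% of all tested genes did. Apoe, a lipoprotein component made by macrophages, was higher in Th17 than in Th9 cultures under HA by 2.00 ± 0.29 (adjusted p = 0.00347), and fell under PBAB in Th17 cultures (-2.50 ± 0.29, adjusted p = 0.00056). The cholesterol exporter Abca1 was higher by 1.47 ± 0.30 in Th17 than in Th9 cultures under HA (adjusted p = 0.0187), and the exporter Abcg1 by 0.85 ± 0.20 (adjusted p = 0.0394). Apoe averaged 5.44 in PBAB, 6.29 in HA and 11.93 in APC alone arrays, and Abca1 averaged 6.37 in PBAB, 7.26 in HA and 9.99 in APC alone arrays. Apoe thus moved with the macrophage markers, whose part in its values was not tested. Abca1 did not move with them in each comparison, and their part in its values was not tested either. Under HA it was lower in Th9 than in Th1 cultures (-1.29 ± 0.30, adjusted p = 0.0304), where the median difference of the 12 markers was 0.60, and its Th17 minus Th1 difference was 0.19, not called (adjusted p = 0.881). Under PBAB it was lower than in Th1 cultures in Th17 (-1.44, adjusted p = 0.0156) and in Th9 cultures (-1.77, adjusted p = 0.0122).

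Of the isoprenoid branch, which uses farnesyl units for other products, 5 of 6 genes were tested and 2 of 5 fell under PBAB in the average (median -0.04), where 17.3% of all tested genes did, namely Dhdds (-0.48 ± 0.13, adjusted p = 0.0192) and Coq2 (-0.26 ± 0.08, adjusted p = 0.032), while Fntb was not called (0.10 ± 0.18). Of 12 fatty acid synthesis genes, which SREBP also drives, 1 rose and 5 fell in the average (median -0.35), where 13.2% and 17.3% of all tested genes did. Acsl3, which activates fatty acids, rose (0.47 ± 0.12, adjusted p = 0.0126), and the elongases Elovl6 (-0.54 ± 0.10, adjusted p = 0.00257) and Elovl5 (-0.59 ± 0.14, adjusted p = 0.00773) fell. Under HA, 2 of these 12 were lower in Th17 than in Th9 cultures and 1 lower than in Th1 cultures, where 2.16% and 3.87% of all tested genes were.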

How the data were processed

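Expression was measured on 15 Affymetrix mouse arrays, from 500 ng of total RNA each. The deposited table held log2 values for 45101 probe sets, which the authors computed with RMA, per the submitters' processing notes. The RMA version was not given in the sources used here. Base 2 was inferred from the range of 2.10 to 15.1. Array medians were 5.45 to 5.54 in activated arrays and 5.89 to 5.93 in APC alone arrays. Interquartile ranges were 3.02 to 3.48 in PBAB, 3.11 to 3.48 in HA and 2.02 to 2.09 in APC alone arrays. The distributions thus differed in level and in width, and the values were used as deposited. Probe sets with 1 symbol (34958 of 45101) were named by the platform annotation of 2016. The 932 with several symbols and the 9211 unnamed here were left out. Each gene was its probe set with the highest mean, tested if that exceeded the 40th percentile (5.07) in at least 2 arrays. No detection calls were used.

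Groups follow the labels. limma 3.58.1 (R 4.3.3) fitted 1 mean per group to all 15 arrays, with 6 residual and 4.38 prior degrees of freedom, and p-values were adjusted by Benjamini-Hochberg over 15498 genes. The unblocked fit was tested on simulated data whose noise was independent between arrays. Such data cannot show how that fit behaves with the replicate pairing given below. The labels call the replicates biological without naming animals or cultures, and the p-values then cover the spread of these samples, which may be technical.

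Replicate numbers were checked for pairing. Over 15 pairs of activated groups, deviations of arrays with the same number correlated at 0.296 to 0.708 (median 0.484), above 0.1 in each. The numbers, shared in the labels, were therefore taken as pairs, and a blocked fit was run beside the unblocked fit, which gives every value not said to be blocked. Further alternatives were no filter, quantile normalization repeated, arrays centred on their medians, the mean of all probe sets of a gene, array weights, the 12 activated arrays alone, and leaving out each activated array.

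Beside the 8 members, the text names up to 3 genes of each other list with the smallest p in the averaged PBAB minus HA comparison, and the 5 most correlated genes. Members and lists were chosen with earlier results of these data known. Some listed genes were not analysed here. Promoters are from RefSeq (GRCm38.p6).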

Additional observations from a re-analysis of the deposited data

Results flagged for a closer look

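Activation effects (PBAB minus HA) of the 8 genes were compared in each pair of lineages. For 10 of these differences, both pairs of arrays of 1 lineage moved one way and both pairs of the other lineage the opposite way. The share of all tested genes with such a split was not computed, so the count is only a description. The limma interaction test called 1 of the 10, Sc5d in Th17 minus Th1, at 1.56 on the log2 scale (adjusted p = 0.00604).

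The other 9 were not called. In Th17 minus Th9 they were Idi1 at -0.64 (adjusted p = 0.188) and Insig1 at 1.21 (0.101), the second of which was called with the replicate block (0.0142). In Th17 minus Th1 they were Hmgcs1 at 0.73 (adjusted p = 0.265) and Sqle at 0.72 (0.371). In Th9 minus Th1 they were Hmgcs1 at 0.69 (adjusted p = 0.429), Idi1 at 0.27 (0.76), Sqle at 0.54 (0.678), Sc5d at 0.76 (0.198, and 0.028 with the replicate block) and Insig1 at -0.58 (0.596). All are from the probe sets used. Other Sc5d probe sets gave PBAB minus HA differences of -0.17 and 0.05 in Th9 and 0.17 and 0.16 in Th1 cultures. The Sc5d split between Th17 and Th1 cultures was thus seen only with the probe set used. Other Hmgcs1 probe sets gave 0.10, 0.01, -0.34 and 0.28 in Th1 cultures. The other Idi1 probe set gave -0.06 in Th9 and 0.52 in Th1 cultures.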

How the results depend on the processing

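Of 120 differences of the 8 genes, 40 were called. Over 730 values of these under the alternatives, 668 stayed called in the same direction, 62 lost the call, 56 of them on leaving out an array, and 0 reversed. The 40 include 8 calls of HA and 7 of PBAB against APC alone. Of these only Mvk under HA lost the call, with quantile normalization repeated. All other losses fell in comparisons between activated groups. The causes were not tested. Among the alternative values of uncalled differences, 42 were called, 20 of them with the replicate block, and 39 others changed sign without being called. These are counts of values, and 1 difference can enter under several alternatives. The 1 reversal to a call was Mvk in PBAB minus APC alone, -0.52 with quantile normalization repeated, which made 1 gene lower there.

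With the replicate block, the paired fit, counts of the 8 genes moved in PBAB minus HA to 1 lower in Th17 cultures, 1 higher and 1 lower in Th9 cultures, and 3 higher in the average. In the differences of activation effects, 3 were higher in Th17 minus Th9, 2 in Th17 minus Th1 and 1 in Th9 minus Th1. Under PBAB 4 were lower in Th17 than in Th9. Under HA, 8 were lower in Th17 than in Th9, 8 lower in Th17 than in Th1 and 1 higher in Th9 than in Th1. With quantile normalization repeated and with the mean of all probe sets alike, counts were 2 higher in the average PBAB minus HA, 1 higher in the Th17 minus Th9 activation effect, 0 higher in Th9 minus Th1 under PBAB and 5 lower in Th17 minus Th1 under HA. Quantile normalization also gave 1 higher in Th9 minus Th1 under HA, and the mean of probe sets 1 higher in Th17 minus Th9 under PBAB. Shares of all tested genes called in these settings are not given here, so it cannot be told whether the counts moved with them.

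Leaving out each array in turn gave, for PBAB minus HA, 1 to 3 higher in Th17, 0 to 1 lower in Th9, 0 to 3 lower in Th1, and 1 to 2 higher and 1 to 2 lower in the average. Under PBAB it gave 2 to 3 lower in Th17 minus Th9, 0 to 2 lower in Th17 minus Th1 and 0 to 0 higher in Th9 minus Th1. Under HA it gave 3 to 6, 2 to 5 lower and 0 to 1 higher in these comparisons. Shares over all tested genes are not given for these fits either. No setting measured how far signal over background limits dim probe sets.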
